A study of Homo sapiens with 6 samples.

Results

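The BCL2 family was followed across 6 RNA sequencing libraries of MDA-MB-231 cells, a long-established human breast cancer line that lacks the hormone receptors. The members were the 10 genes with the symbols BCL2, BCL2L1, BCL2L2, MCL1, BCL2A1, BAX, BAK1, BBC3, PMAIP1 and BCL2L11, taken by gene name from a deposited table of 60461 genes. All 10 were present once, all are protein coding, and all were among the 18899 genes tested. Of the 2 groups, 3 libraries came from cells given an adenovirus coding for ADAR1 p110, the constitutive and mainly nuclear form of an adenosine-to-inosine RNA editing enzyme. The other 3 came from cells given a control adenovirus with enhanced green fluorescent protein (GFP). Both groups therefore carried virus, at a multiplicity of infection of 200, with a medium change at 16 h and extraction of total RNA at 48 h. Cells without virus were not analysed here. The labels call the replicates biological without saying how the cultures were kept apart, so a p-value here reflects only how these libraries vary, which may be technical.

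Proteins of this family decide whether the outer mitochondrial membrane is opened during apoptosis. Guardians such as BCL2, BCL-XL (gene BCL2L1), BCL-W (BCL2L2), MCL1 and A1 (BCL2A1) hold the effectors BAX and BAK (BAK1) in check. BH3-only proteins, among them PUMA (BBC3), NOXA (PMAIP1) and BIM (BCL2L11), are induced or released by stress, bind the guardians and can activate the effectors. Once the effectors form pores, cytochrome c leaves the mitochondrion and caspases are switched on. Epithelial tumour cells often rely on BCL-XL and MCL1, while A1 is best known from blood cells and as a gene induced by the transcription factor NF-kappaB. Gene counts do not separate isoforms, such as the long and short products of BCL2L1 and MCL1, and do not measure protein.

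Library totals ran from 72741235 to 99589278 counts, so that the limit set by a count of 0, taken as 3 counts, was 0.0301 to 0.0412 CPM (a gene's counts relative to its library's total, scaled by the TMM method), covering counting error only. ADAR itself stood at 1011, 1015 and 991 CPM after ADAR1 p110 and at 257, 272 and 272 CPM with GFP, the order its label gives. The line's own markers VIM and CD44 were abundant, at means between 392 and 2179 CPM, and the hormone receptor genes ESR1 and PGR were at or near 0. Among the 7 line markers, edgeR and limma-voom each called 1 higher, DESeq2 called 2 higher, and none was called lower. At an unadjusted edgeR p under 0.05, 4 were higher, VIM among them, and 1, CD44, was lower. Of the 3 leukocyte markers that could be tested none was called by edgeR, DESeq2 or limma-voom. Only 1 of them, LYZ, had an unadjusted edgeR p under 0.05, and it was higher after ADAR1 p110. The 7 fibroblast and endothelial markers summed to 20.9 to 23.3 CPM after ADAR1 p110 and 27.5 to 28.5 CPM with GFP. Of 5 tested genes edgeR called 1 lower, and DESeq2 and limma-voom each called 2 lower and none higher. COL1A1, KDR and LUM had all ADAR1 p110 libraries below the GFP libraries, while COL3A1 and VWF overlapped. COL1A1 had means of 10.8 CPM after ADAR1 p110 and 13.9 CPM with GFP, and KDR 7.39 and 10.1 CPM. CDH5 was at or near 0. The part of these markers in any result was not tested. On the second principal component of log2 expression (23.7% of the variance), ADAR1 p110 replicate 1 and GFP replicate 2 lay at 17 and 11.3. The other 4 libraries lay between -8.46 and -5.72. Results for the members are given with and without those 2 libraries where these differ.

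After ADAR1 p110, 3 of the 10 members were lower, namely BCL2A1, BBC3 and BAK1, 1 from each functional class, and none was higher. BCL2A1 was 3.98-fold lower, BBC3 fell by 29.9% and BAK1 fell by 16.7%. The most abundant guardians, BCL2L1 and MCL1, and the other effector, BAX, did not pass the test. Across all genes, 2.96% were called lower and 1.95% higher (quasi-likelihood test of edgeR, with p-values adjusted over all 18899 genes by Benjamini-Hochberg and called under 0.05), and scaling by library size alone turned 559 lower and 368 higher genes into 479 and 510. No member was higher at an unadjusted p under 0.05 in edgeR, or by adjusted p in DESeq2 or limma-voom. The ADAR1 p110 libraries lay entirely below the GFP libraries for 4 members (the 3 called and BCL2L2) and entirely above for none, while 24.0% of all tested genes had groups that did not overlap in one direction or the other. The median log2 fold change was -0.023 over the 10 members and 0.0048 over all tested genes.

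**Figure D1:**
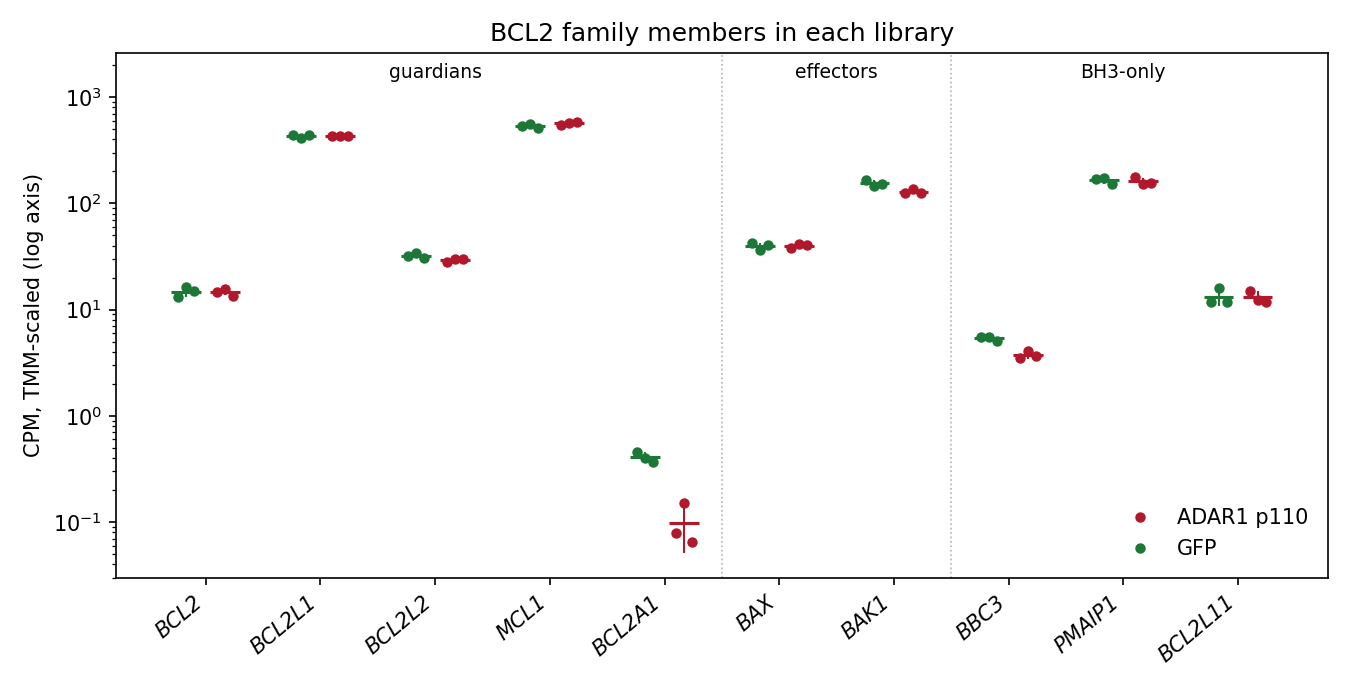
Level of each of the 10 members in every library as TMM-scaled CPM on a log axis, GFP in green and ADAR1 p110 in red, where flat bars are means and upright lines are SDs of 3 libraries. The groups lie apart for BCL2A1, BAK1, BBC3 and BCL2L2, and levels span from 0.0647 CPM (BCL2A1) to 586 CPM (MCL1).

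The stretches upstream of the 3 members that fell are shown because these genes moved in the same direction. Each is the 250 bases before a RefSeq transcription start (build GRCh38.p14), written 5' to 3' on the gene's strand, with matches to the searched motifs in capitals. BCL2A1 lies at chr15:79971197-79971446, BBC3 at chr19:47232668-47232917 and BAK1 at chr6:33580277-33580526, all on the minus strand. Other starts of these genes may be in use in this line.
BCL2A1: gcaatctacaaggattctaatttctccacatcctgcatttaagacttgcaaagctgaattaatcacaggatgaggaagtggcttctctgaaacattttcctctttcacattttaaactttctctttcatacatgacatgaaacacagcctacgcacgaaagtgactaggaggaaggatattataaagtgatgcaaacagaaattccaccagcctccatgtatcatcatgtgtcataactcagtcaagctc
BBC3: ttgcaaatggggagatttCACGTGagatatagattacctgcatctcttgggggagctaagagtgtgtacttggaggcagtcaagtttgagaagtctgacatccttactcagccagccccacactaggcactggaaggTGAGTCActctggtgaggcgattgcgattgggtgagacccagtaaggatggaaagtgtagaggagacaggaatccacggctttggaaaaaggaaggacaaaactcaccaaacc
BAK1: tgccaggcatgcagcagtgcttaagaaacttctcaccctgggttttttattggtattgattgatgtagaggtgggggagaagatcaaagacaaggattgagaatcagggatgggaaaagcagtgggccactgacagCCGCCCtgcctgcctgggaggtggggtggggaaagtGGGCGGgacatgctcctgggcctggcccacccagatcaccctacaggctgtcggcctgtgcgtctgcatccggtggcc

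Both strands were searched for the kappaB motif, the AP-1 motif TGANTCA, the E-box CACGTG, the GC box GGGCGG and the cyclic AMP response element TGACGTCA. The BCL2A1 stretch held no match. The BBC3 stretch held 1 E-box, 232 to 227 bases before the start, and 1 AP-1 match, 113 to 107 bases before it. The BAK1 stretch held 2 GC boxes, 114 to 109 and 78 to 73 bases before the start. The 3 sequences thus shared no motif among those searched. Of 35116 stretches of the same length in the table, 6.34% held the E-box, 6.57% the AP-1 motif, 42.6% the GC box, 9.96% the kappaB motif and 1.65% the cyclic AMP response element. The 3 stretches also differed in composition, with 38.8% G and C in BCL2A1, 49.2% in BBC3 and 58.0% in BAK1, against a median of 58.0% over all. Of the 10 members, 8 had an entry in the table, with 9 stretches, and MCL1 and BCL2L2 did not. No kappaB match fell in any of the 9. BAX, which was not called, held 4 E-boxes and 1 GC box, and PMAIP1 and BCL2L11 held 4 and 3 GC boxes. The matches overlapped no other motif and are letters only, not measured sites.

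Guardians came first among the roles. BCL2A1 (ENSG00000140379.7_2, hg19 chromosome 15, 80253231 to 80263788, minus strand), which encodes the short-lived guardian A1, drew 6, 15 and 5 counts after ADAR1 p110 (replicates 1, 2 and 3) and 40, 29 and 36 with GFP. These are 0.0790, 0.152 and 0.0647 CPM against 0.461, 0.400 and 0.366 CPM. Every ADAR1 p110 library lay below every GFP library, with the closest approach in ADAR1 p110 replicate 2. The log2 fold change was -1.99 (SE 0.395, 95% interval -2.87 to -1.12, edgeR adjusted p = 0.0157). BCL2A1 passed the low-count filter through the GFP libraries, with 3 of them and 1 ADAR1 p110 library over its limit of 0.122 CPM, so the filter favoured this direction.

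The BCL2A1 call rested on few reads. It was lost without ADAR1 p110 replicate 3 (log2 fold change -1.77, adjusted p = 0.0785), without GFP replicate 1 (-1.90, 0.0842) and without GFP replicate 3 (-2.07, 0.0538). DESeq2 gave it no adjusted p because of its low mean, at an unadjusted p of 6.83e-05. In RNA from whole cultures, fewer cells with the transcript and less RNA per cell cannot be told apart. Because A1 is known from blood cells, markers of leukocytes are set beside it. The 8 genes together amounted to 4.20 to 5.003 CPM after ADAR1 p110 and 4.55 to 5.65 CPM with GFP, and the T-cell gene CD3E had no read in any library. Of the 8, 3 were abundant enough to test and none was called. CD14 had means of 2.91 CPM after ADAR1 p110 and 3.60 CPM with GFP, and PTPRC 0.281 and 0.277 CPM, both with overlapping groups. LYZ had 1.15 against 0.781 CPM, with all ADAR1 p110 libraries above the GFP libraries (log2 fold change 0.57, edgeR adjusted p = 0.161). The part of such cells in the BCL2A1 result was not tested.

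BCL2L1 (hg19 chromosome 20, 30252255 to 30311792, minus strand), the gene of BCL-XL, had 428, 434 and 435 CPM after ADAR1 p110 and 442, 415 and 440 CPM with GFP. The groups overlapped and their means differed by less than either SD, at 432 ± 3.78 and 432 ± 15.3 CPM (n = 3 each). The 95% interval of the difference ran from -7.03% to 7.64%. MCL1 (hg19 chromosome 1, 150547027 to 150552214, minus strand), whose protein turns over within a short time, had 546, 565 and 586 CPM against 537, 555 and 508 CPM. Its 2 higher ADAR1 p110 libraries lay above all GFP libraries and replicate 1 among them. The log2 fold change was 0.08 (95% interval -0.03 to 0.20, edgeR adjusted p = 0.452). With ADAR1 p110 replicate 1 and GFP replicate 2 both left out it was 0.14 and passed, with an adjusted p of 0.0227, and it passed in none of the other alternatives.

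BCL2 (hg19 chromosome 18, 60790579 to 60987361, minus strand), the founding member, was a minor transcript in these cells. It had 14.8, 15.5 and 13.5 CPM after ADAR1 p110 and 13.01, 16.3 and 14.97 CPM with GFP, with overlapping groups and a 95% interval of -14.0% to 13.7%. BCL2L2 (hg19 chromosome 14, 23767999 to 23780968, plus strand), the gene of BCL-W, had 28.1, 30.0 and 30.0 CPM against 32.1, 33.8 and 30.3 CPM. All ADAR1 p110 libraries were below the GFP libraries by a narrow margin. The log2 fold change, -0.13 with an SE of 0.062, did not pass here (edgeR adjusted p = 0.309) or in any of the 14 alternatives. Its locus overlaps PPP1R3E, a gene of a glycogen-targeting phosphatase subunit, on the other strand. PPP1R3E held 12.6% as many counts and rose, at a log2 fold change of 0.61 (edgeR adjusted p = 0.0124), a call lost without replicate 3 of either group. The strand setting of the counting is not stated, so reads of these overlapping genes cannot be told apart with certainty.

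The effectors parted. BAK1 (ENSG00000030110.12_2, hg19 chromosome 6, 33540324 to 33548070, minus strand) had 125, 137 and 125 CPM after ADAR1 p110 and 166, 147 and 152 CPM with GFP. The groups did not overlap, and replicate 2 of each came closest. The log2 fold change was -0.26 (SE 0.062, 95% interval -0.40 to -0.13, edgeR adjusted p = 0.0339). When single libraries were left out, this call was lost without ADAR1 p110 replicate 3 (adjusted p = 0.158), GFP replicate 1 (0.165) or GFP replicate 3 (0.104). BAX (hg19 chromosome 19, 49458072 to 49465055, plus strand), whose protein moves from the cytosol to mitochondria when activated, had 37.9, 41.8 and 40.5 CPM against 42.3, 36.4 and 40.4 CPM. Its groups overlapped throughout, and the 95% interval of the difference was -9.07% to 12.0%. The difference between BAK1 and BAX in their response was not tested.

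Among the BH3-only members, BBC3 (ENSG00000105327.17_3, hg19 chromosome 19, 47724079 to 47736023, minus strand), the gene of PUMA, had 3.50, 4.10 and 3.67 CPM after ADAR1 p110 and 5.577, 5.4999 and 5.041 CPM with GFP. All 3 ADAR1 p110 libraries lay well below the GFP libraries. The log2 fold change was -0.51 (SE 0.100, 95% interval -0.73 to -0.29, edgeR adjusted p = 0.0146). It was not called once ADAR1 p110 replicate 3 (-0.49, adjusted p = 0.0701) or GFP replicate 1 (-0.48, 0.0773) was left out. PUMA binds all guardians of the family. PMAIP1 (hg19 chromosome 18, 57567180 to 57571538, plus strand), the gene of NOXA, which acts mainly on MCL1 and A1, had 177, 153 and 154 CPM against 169, 175 and 151 CPM, with a 95% interval of -12.3% to 9.48%. BCL2L11 (hg19 chromosome 2, 111876955 to 111926024, plus strand), the gene of BIM, had 15.1, 12.3 and 11.9 CPM against 11.8, 15.9 and 11.7 CPM. Its 2 high values were those of ADAR1 p110 replicate 1 and GFP replicate 2, the pair that stood away on the second component, and PMAIP1 was also highest in those 2. Neither gene separated the groups, and for BCL2L11 the 95% interval of -17.8% to 21.5% was the widest among the 7 members that were not called.

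**Figure D2:**
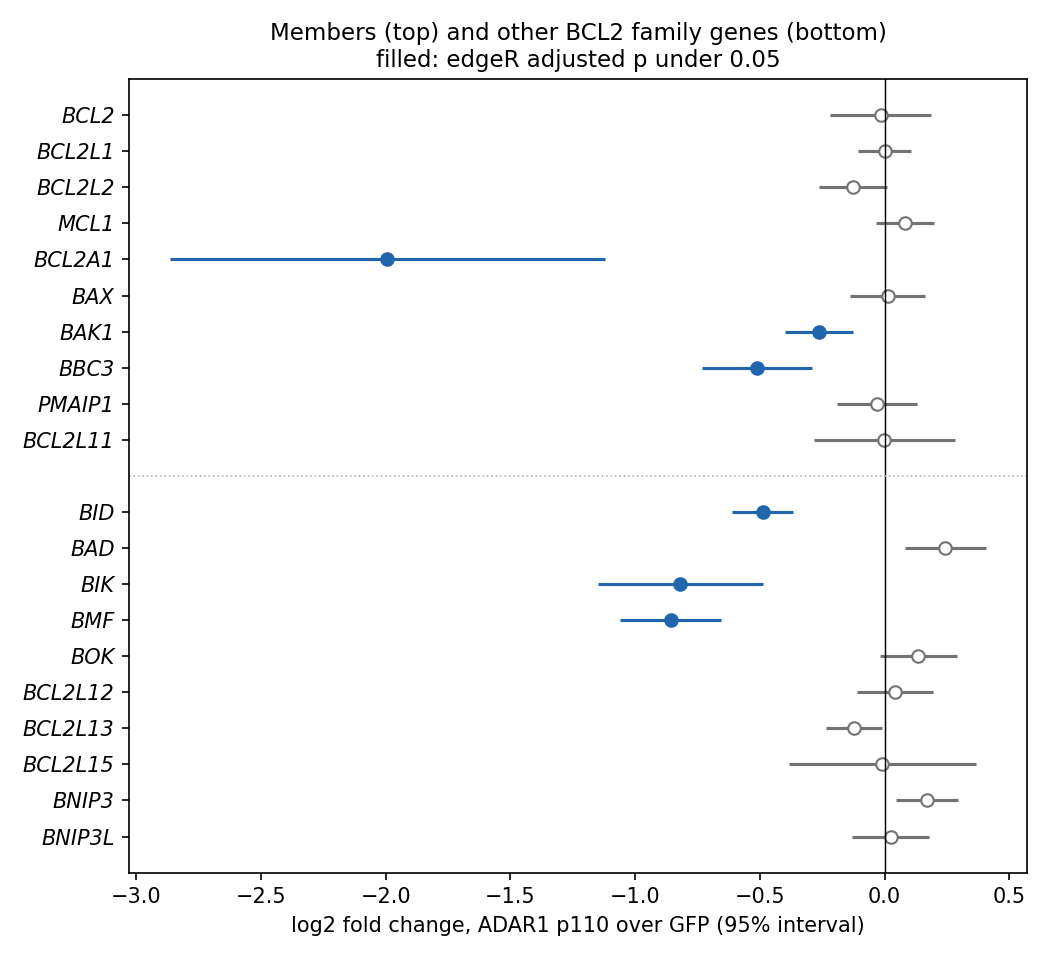
Change after ADAR1 p110 relative to GFP (log2 fold change, edgeR) with its 95% interval for the 10 members (top) and the 10 tested genes of the wider family (bottom), filled blue where lower at an adjusted p under 0.05. BCL2A1 has the largest estimate and the widest interval, at -1.99 (-2.87 to -1.12), and the intervals of BCL2L1, MCL1 and BAX include 0.

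**Figure D3:**
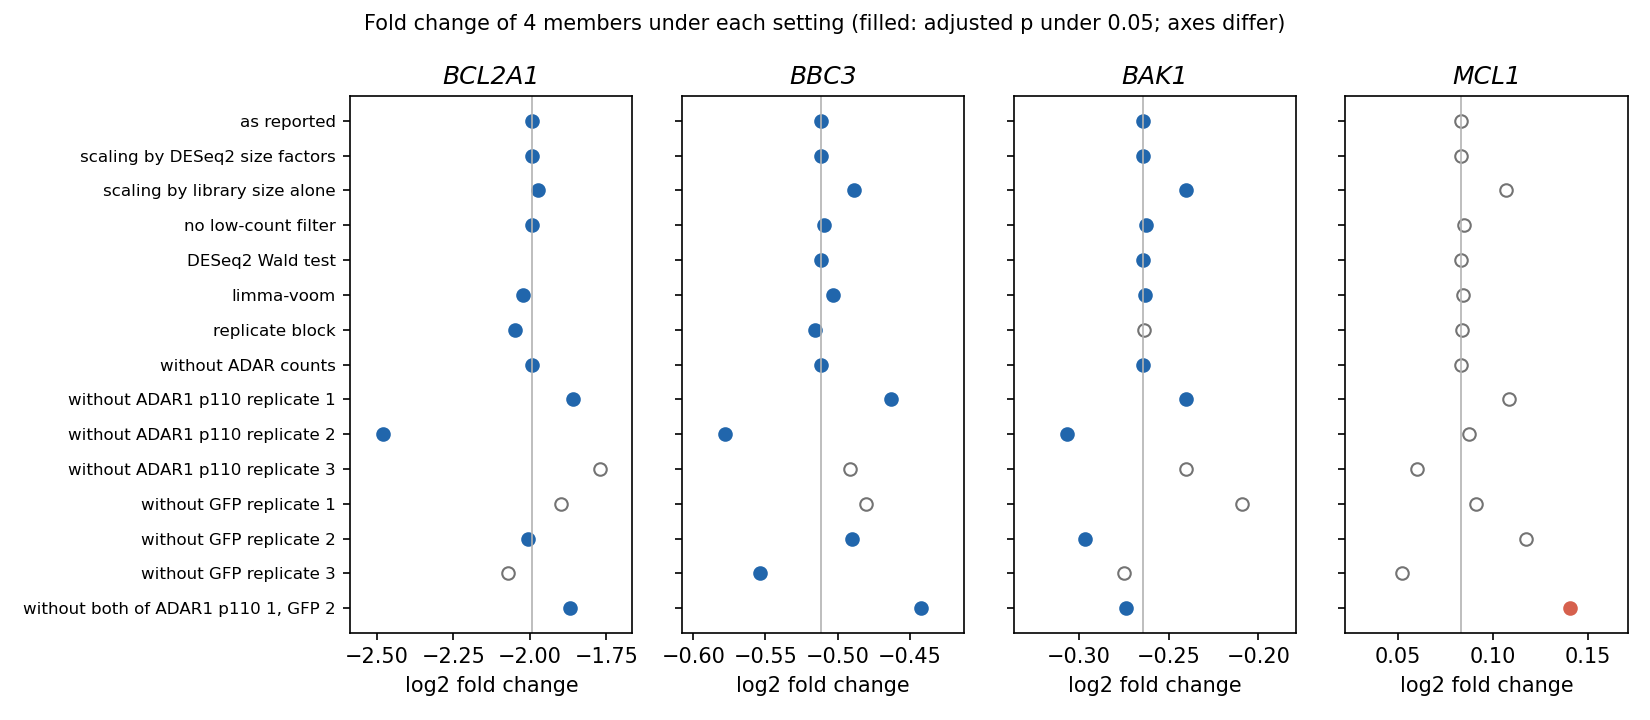
Log2 fold change of BCL2A1, BBC3, BAK1 and MCL1 as reported and under 14 alternatives (13 for BCL2A1, which has no adjusted p in DESeq2), filled where the adjusted p was under 0.05, with separate horizontal scales. Estimates of the 3 called members stay below 0 throughout, and open points in the rows without ADAR1 p110 replicate 3 and GFP replicate 1 show where all 3 calls were lost.

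Levels were then compared between genes as CPM per kilobase of the deposited gene length. In the GFP libraries the order was BCL2L1 (130 ± 4.61), MCL1 (122 ± 5.43), PMAIP1 (73.7 ± 5.57), BAK1 (70.2 ± 4.45), BAX (15.3 ± 1.16), BCL2L2 (7.65 ± 0.416), BCL2L11 (1.97 ± 0.354), BBC3 (1.69 ± 0.0911), BCL2 (1.26 ± 0.142) and BCL2A1 (0.375 ± 0.0442 CPM per kilobase, SD, n = 3). The values of BCL2L1 and MCL1 overlapped, as did those of PMAIP1 and BAK1, and every other neighbour in that order was apart. BCL2L11 and BBC3 were apart only narrowly, with a lowest BCL2L11 value of 1.757 and a highest BBC3 value of 1.754 CPM per kilobase. Those 4 genes carried most of the family's RNA, with BCL2L1 at 29.4% to 32.1% and MCL1 at 28.1% to 29.9% of the summed level of the 10 members. After ADAR1 p110 the same 7 genes led in the same order. PMAIP1 (72.3 ± 6.00) then stood apart from BAK1 (58.4 ± 3.16), and BCL2 (1.24 ± 0.0842) and BBC3 (1.18 ± 0.0969 CPM per kilobase) overlapped and changed places.

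Summed by role on the same per-length scale, the 5 guardians amounted to 262, 269 and 274 CPM per kilobase after ADAR1 p110 and 266, 262 and 258 with GFP. The 3 BH3-only members summed to 82.5, 71.8 and 71.8 against 79.2, 82.2 and 70.8, and the groups overlapped for both roles. The 2 effectors summed to 71.1, 78.2 and 72.4 against 91.5, 80.6 and 84.5 CPM per kilobase, a difference carried by BAK1. The guardian sum was 3.68, 3.44 and 3.78 times the effector sum after ADAR1 p110 and 2.90, 3.25 and 3.05 times with GFP, without overlap between the groups. These sums describe RNA per length only and were given no test.

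Of the 13 other family genes listed, 10 could be tested, 3 fell and none rose, with 2 higher at an unadjusted p under 0.05, 1 higher by DESeq2 and none by limma-voom. The 3 that fell, BMF, BIK and BID, are all BH3-only genes. BMF, whose protein is released from the cytoskeleton when cells lose attachment, had 3.57, 3.31 and 3.78 CPM against 6.48, 6.53 and 6.26 CPM (log2 fold change -0.86, edgeR adjusted p = 0.000350). BID, which links death receptors to the mitochondrion once cleaved by caspase-8, had 40.04, 42.22 and 41.97 CPM against 60.3, 55.8 and 58.3 CPM (-0.49, 0.000498). For both, the groups were wide apart and the call held in all 14 alternatives. BIK had 1.53, 1.53 and 1.28 CPM against 2.19, 2.77 and 2.71 CPM (-0.82, edgeR adjusted p = 0.0102), a call lost without replicate 3 of either group.

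With the members BBC3, PMAIP1 and BCL2L11, 4 of 7 tested BH3-only genes were lower and none higher, a grouping made after the values were seen, beside 2.96% lower and 1.95% higher over all tested genes. Of those 4 calls, BBC3 and BIK were each lost when single libraries were left out, as given above. The BH3-only gene BAD lay the other way, with 48.1, 51.9 and 50.1 CPM against 39.7, 39.7 and 47.2 CPM, but did not pass (log2 fold change 0.24, edgeR adjusted p = 0.0942). BAD was called higher in 5 of 14 alternatives, with adjusted p of 0.0132 with no filter, 0.0377 by DESeq2, 0.0382 without ADAR1 p110 replicate 1, 0.0315 without GFP replicate 3 and 0.0295 with ADAR1 p110 replicate 1 and GFP replicate 2 both left out, so that none higher holds for the reported fit. Its locus overlaps GPR137 on the other strand, which held 59.5% as many counts. The mitophagy receptor gene BNIP3 also had all ADAR1 p110 libraries above the GFP libraries and did not pass (0.17, edgeR adjusted p = 0.123), though it passed with ADAR1 p110 replicate 1 and GFP replicate 2 both left out (0.0328). BOK, BCL2L12, BCL2L13, BCL2L15 and BNIP3L had log2 fold changes between -0.12 and 0.14 and were not called. With the same 2 libraries left out, BCL2L13 was called lower (-0.15, edgeR adjusted p = 0.0418). HRK, BCL2L10 and BCL2L14 had at most 14 counts in a library and were not tested. As a share of each set, 30.0% of the tested members and 30.0% of the tested other family genes were called, against 4.91% of all tested genes. Both sets were chosen with earlier results of these data known, so the shares are a description. BCL2A1, among the called members, passed the filter through the GFP libraries. No member was called without ADAR1 p110 replicate 3 or without GFP replicate 1.

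Genes that act downstream of the pores came next. Of 14 genes for mitochondrial release, the apoptosome and caspases none was called by edgeR, with 1 higher and 3 lower at an unadjusted p under 0.05, and DESeq2 and limma-voom each called 1 lower. The most abundant, the membrane channel gene VDAC1, had a log2 fold change of -0.07 (edgeR adjusted p = 0.561). Of 18 tested ubiquitin ligases, deubiquitinases and kinases that act on family proteins none was called, with 1 higher and 4 lower at an unadjusted p under 0.05. DESeq2 called 1 of them higher and limma-voom none. HUWE1, a ligase for MCL1, was the most abundant, at a log2 fold change of -0.15 (edgeR adjusted p = 0.659).

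Transcription factors that act on family genes gave 4 lower and 1 higher of 14. RELB, NFKB2 and NFKB1, subunits of NF-kappaB, had the smallest p, with log2 fold changes of -1.16, -0.96 and -0.69. REL (-0.79), another subunit, named after its value was seen, also fell. RELA, the remaining subunit and also named afterwards, had overlapping groups and was not called (-0.18, edgeR adjusted p = 0.163). E2F1, likewise named afterwards, rose (0.28), a call lost in 6 of 14 alternatives. Of 3 genes linking death receptors to the family, CFLAR, the caspase-8 inhibitor FLIP, fell from 217 ± 4.405 to 168 ± 2.66 CPM (-0.37, edgeR adjusted p = 0.00107) and kept its call in all 14 alternatives. Of 6 partners at the endoplasmic reticulum and in autophagy, ITPR3, a calcium channel that binds BCL2 and BCL-XL, fell from 729 ± 17.6 to 629 ± 32.96 CPM (-0.21, edgeR adjusted p = 0.0458), a call lost in 7 of 14 alternatives. Taking the 6 lists without the members, 9 of 65 tested genes fell, the 3 other family genes among them, and 1 rose. Over all tested genes 2.96% were called lower and 1.95% higher. The lists were chosen with earlier results of these data known.

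**Figure D4:**
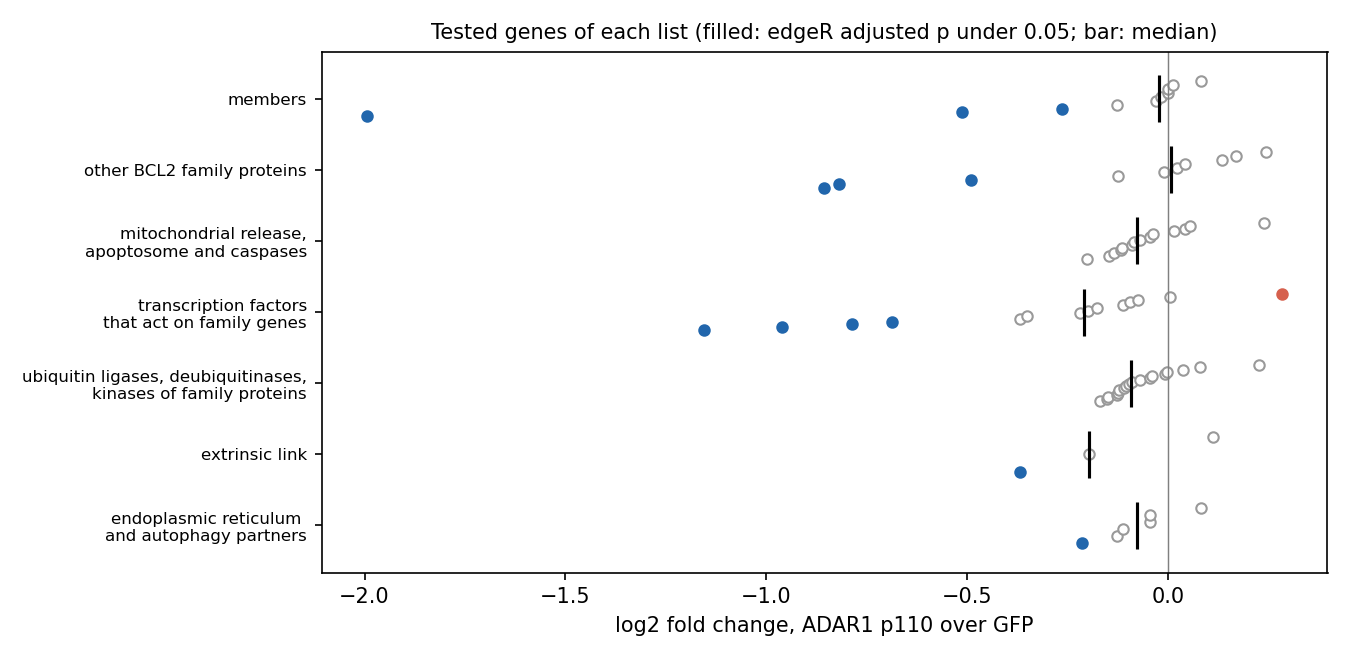
Log2 fold change of each tested gene in the members and 6 lists of related genes, filled blue where lower and red where higher at an edgeR adjusted p under 0.05, with the list median as a black bar. Blue points sit among the members (3), the other family genes (3), the transcription factors (4, list median -0.21) and, with 1 each, the bottom 2 lists, while no filled point stands in the rows for caspases or for ligases and kinases.

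The genes whose levels were most like BCL2A1 over the 6 libraries, out of 10343 protein-coding candidates with a mean of at least 5 CPM, were HYOU1, EFNB2 and PLAU. Their Pearson correlations with it on the log2 scale were 0.997, 0.995 and 0.993. HYOU1 encodes a chaperone of the endoplasmic reticulum, EFNB2 an ephrin ligand and PLAU the urokinase plasminogen activator. Their log2 fold changes were -0.19, -0.11 and -0.47, much smaller than that of BCL2A1. EFNB2 did not pass (edgeR adjusted p = 0.246) and the call of HYOU1 was lost in 7 of 14 alternatives. The points share 2 groups of 3 libraries, and the 3 genes were the highest of 10343, so the likeness is a description. BCL2A1 had 5 to 40 counts a library, and its level stayed below the 0.5 CPM added before the log2.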

How the data were processed

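Total RNA of 6 libraries, 3 per group, was sequenced after a stranded library preparation, per the labels' protocols. STAR 2.5.2a, featureCounts 1.5.1 and the build hg19 are named in the submitters' processing notes. The authors deposited raw whole-number counts per gene with coordinates and gene length per the file headers. Neither the strand setting nor the handling of multiply aligned reads is stated. Genes passing filterByExpr of edgeR 4.0.16 (minimum count 10) were scaled by TMM and tested with glmQLFit and glmQLFTest in R 4.3.3, with a term for group alone. Benjamini-Hochberg adjustment ran over all 18899 tested genes. An SE is the log2 fold change divided by the square root of F. CPM are TMM-scaled, except in the filter limit and the limit for a count of 0, which use library totals alone. Errors are SD. Similarity was computed on log2 (CPM + 0.5).

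The members and lists were chosen with earlier results of these data known, and 1 gene of the transcription factor list is not reported here. The genes named were ADAR, the members, the other family genes, up to 3 called genes with the smallest p per list or the most abundant one, genes overlapping a member with at least 10% as many counts, and the 3 genes most like the called member that changed most. REL, RELA, E2F1, ADAMTSL4-AS1, BCL2L2-PABPN1, UQCC2 and the marker genes named fall outside this rule and were picked with their values in view. Alternatives were scaling by DESeq2 1.42.0 size factors or library size, no filter, the DESeq2 Wald test, limma-voom (3.58.1), a replicate block, removal of ADAR counts, each library left out, and 2 libraries left out together. Chi-square per degree of freedom between pairs of libraries ran from 8.68 to 58.7, too far apart for re-sequencing of a single library. Such values cannot tell separate cultures from separate preparations of a shared culture. ADAR1 p110 replicate 1 was nearer to GFP replicate 2 (34.4) than to replicates 2 (40.1) and 3 (35.6) of its own group. Every other library was nearest to a library of its own group. The scripts were tested on simulated counts. There edgeR recovered 14.3% of 1.2-fold and 78.7% of 2-fold changes, or 30.4% and 100% at 5 CPM or more, so small changes can go uncalled. False calls made up 7.32% of the calls by edgeR, 6.67% by limma-voom and 15.4% by DESeq2. Fewer genes were changed in the simulation than were called in the data, so these shares need not hold for the data.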

Additional observations from a re-analysis of the deposited data

How the results depend on the processing

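Of the 10 members, 3 were called as reported and 2 to 3 under the 7 alternatives of scaling, filter, test, block and ADAR counts. Leaving out single libraries gave 0 to 3, with 0 without ADAR1 p110 replicate 3 or GFP replicate 1 and 1 without GFP replicate 3, and 4 were called when ADAR1 p110 replicate 1 and GFP replicate 2 were both left out. The estimates of BCL2A1, BBC3 and BAK1 kept their direction throughout, at -2.48 to -1.77, -0.58 to -0.44 and -0.31 to -0.21. The count over all genes, 927 as reported, was 1553 with no filter, 508 with the replicate block, 396 to 1812 without single libraries and 2605 without the 2 libraries together. That of the other listed genes, 10 as reported, was 7 to 17 without single libraries and 25 without the 2 together. The cause was not tested. Replicate numbers did not pair the libraries (correlations of same-numbered deviations -0.204, -0.153 and 0.0997), and with the replicate block BAK1 was not called (-0.26, edgeR adjusted p = 0.124).

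Members near 0, and some of the other listed genes, changed sign between settings without being called. BCL2L11 was 0.0233 with library size alone, 0.0013 with no filter, 0.0127 with limma-voom, 0.0027 with the block, 0.0434 without the 2 libraries together and -0.11 to 0.16 without single libraries. BCL2 was 0.0069 with library size alone, 0.0546 without the 2 together and -0.0967 to 0.0649 without single ones. BCL2L1 and BAX were -0.0184 and -0.0028 without the 2 together, and -0.0241 to 0.0203 and -0.0399 to 0.0643 without single ones, and PMAIP1 was -0.0997 to 0.0185. BCL2L15 was 0.0151 with library size alone and -0.0698 to 0.0634 without single libraries, BNIP3L -0.0367 to 0.0719 and HUWE1 -0.34 to 0.0025. Depth limits BCL2A1 most, at 5 to 40 counts a library.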

Other observations

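The following neighbours of members on the chromosome were picked after their values were seen. BAK1 and ITPR3, both lower after ADAR1 p110, lie 40.1 kb apart on chromosome 6 (hg19) on opposite strands. UQCC2, which overlaps ITPR3 on the other strand, had a log2 fold change of 0.14 and was not called (edgeR adjusted p = 0.365). Genes between BAK1 and ITPR3 were not examined. ADAMTSL4-AS1, a noncoding transcript that overlaps the MCL1 locus on the same strand, held 0.937% as many counts as MCL1. It rose at a log2 fold change of 0.43 (edgeR adjusted p = 0.0268), against 0.08 for MCL1. Reads of these overlapping genes cannot be told apart with certainty, and the call was not followed in the alternatives. At the BCL2L2 locus the readthrough BCL2L2-PABPN1 held 2.57% as many counts as BCL2L2 and had a log2 fold change of -0.51 that did not pass (edgeR adjusted p = 0.217).

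KDR, a receptor gene in the endothelial marker list, fell from 10.1 ± 0.410 to 7.39 ± 0.274 CPM (edgeR adjusted p = 0.00603), and CAV1 rose from 767 ± 21.1 to 879 ± 10.5 CPM (edgeR adjusted p = 0.0378, lost in 6 of 14 alternatives), while the endothelial genes CDH5 and VWF stayed at or under 0.148 CPM on average.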
